A study of Mus musculus with 54 samples.

Results

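The regions described here are 116 large topologically associating domains that were called at nearly the same place in gemcitabine-resistant (GR) and parental (Pa) mouse pancreatic cancer cells and that hold protein-coding genes. The members were chosen by the deposited border positions of both lists: a domain was taken when it lay on an autosome, measured 1000 kb or more in the parental list, had a domain of the resistant list with both borders within 20 kb, and overlapped at least 1 protein-coding gene body of the mm10 annotation. The autosomal parental list held 3798 domains, of which 435 reached 1000 kb, and 128 of those 435 had a matching resistant domain. The other 12 matched large domains overlapped no protein-coding gene, and a further 269 large domains with genes had no match.

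The series holds 54 samples in 18 groups of 3, and the 6 Hi-C samples are the ones behind these lists. The GR samples carry the genotype label "Gemcitabine resistant" and were treated with gemcitabine dissolved in DMSO. The Pa samples carry the genotype label WT and received DMSO, so resistance and the drug treatment cannot be told apart in this comparison. Both conditions are labelled as mouse (Mus musculus) pancreatic cancer cells from a primary tumor, and the series text names doxorubicin where the sample labels name gemcitabine; the labels were followed. No age or strain is given, and the labelled cell type was not checked against markers, since contact lists hold no expression. For Hi-C, chromatin was fixed with 1% formaldehyde, cut with DpnII, filled in with biotin, ligated and pulled down, so that a sequenced junction records a pair of places that were close in the nucleus. Each condition has 1 deposited domain list and 1 deposited loop list, and whether the 3 replicates were pooled is not stated. There is therefore no replicate check on any value below, and no test was made between GR and Pa. The intervals given with shares are exact 95% Clopper-Pearson intervals and cover counting error only.

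A topologically associating domain is a stretch of chromosome whose parts contact each other more than they contact the neighbouring stretches. Cohesin extrudes chromatin into loops and is stopped by the DNA-binding protein CTCF, which is found at many domain borders and loop anchors, and loops also join promoters with distant enhancers. Very long genes are typical of the nervous system, where they code for adhesion molecules, receptors and RNA-binding proteins, and they often lie in gene-poor stretches of chromosome.

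Few promoters lay wholly inside the anchor of a loop in these domains. There were 5 for the 38 loops found in both lists, 16 for the 186 GR-only loops and 17 for the 193 Pa-only loops. Those shown are a choice and do not stand for the strongest loops as a set. A loop anchor is a bin of 5 kb, and the promoters are RefSeq sequences of build GRCm38.p6, 300 bases from 250 before to 50 after the gene's start, written 5′ to 3′ on the gene's strand. Promoter entries existed for 608 of the 738 genes in these domains. Atf3 (chr1:191183284-191183583, minus strand), a stress-response transcription factor, and Plekho2 (chr9:65580038-65580337, minus strand) are shown because they lay at anchors of strong loops found in both lists, and Trappc3 (chr4:126262155-126262454, plus strand), a subunit of a vesicle-tethering complex, because its promoter, at an anchor of a weaker shared loop, matches the CTCF core. Amigo3 (chr9:108052909-108053208, plus strand), an adhesion protein, stands at the GR-only loop with the lowest p, and Ptger4 (chr15:5244138-5244437, minus strand), a prostaglandin E2 receptor, at another GR-only loop with a CTCF core. Bsn (chr9:108190334-108190633, minus strand), a presynaptic scaffold protein, and Foxd1 (chr13:98353995-98354294, plus strand), a forkhead transcription factor, stand at Pa-only loops. Capitals mark a CTCF core (CC, 3 bases of any kind, AGG, 1 base of any kind, GGC), a forkhead core (TGTTTAC), a cAMP-response-type site (TNACGTCA) or a DpnII site (GATC), each searched on both strands.
Atf3: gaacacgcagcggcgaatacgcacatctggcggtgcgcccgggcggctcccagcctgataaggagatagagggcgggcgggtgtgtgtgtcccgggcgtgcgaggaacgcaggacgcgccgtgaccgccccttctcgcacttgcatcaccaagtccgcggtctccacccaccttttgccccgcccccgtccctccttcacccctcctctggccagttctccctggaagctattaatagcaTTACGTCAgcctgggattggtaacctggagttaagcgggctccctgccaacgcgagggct
Plekho2: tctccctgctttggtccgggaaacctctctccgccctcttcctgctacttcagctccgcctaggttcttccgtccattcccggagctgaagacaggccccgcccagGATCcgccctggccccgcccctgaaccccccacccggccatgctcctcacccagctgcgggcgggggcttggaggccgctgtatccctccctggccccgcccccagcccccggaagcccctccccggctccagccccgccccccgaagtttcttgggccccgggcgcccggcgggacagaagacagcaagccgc
Trappc3: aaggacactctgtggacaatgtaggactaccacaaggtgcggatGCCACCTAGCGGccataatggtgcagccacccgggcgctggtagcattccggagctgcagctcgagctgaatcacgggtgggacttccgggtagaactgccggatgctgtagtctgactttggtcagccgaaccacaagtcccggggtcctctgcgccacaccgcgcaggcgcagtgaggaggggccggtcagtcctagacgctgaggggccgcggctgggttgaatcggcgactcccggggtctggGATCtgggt
Amigo3: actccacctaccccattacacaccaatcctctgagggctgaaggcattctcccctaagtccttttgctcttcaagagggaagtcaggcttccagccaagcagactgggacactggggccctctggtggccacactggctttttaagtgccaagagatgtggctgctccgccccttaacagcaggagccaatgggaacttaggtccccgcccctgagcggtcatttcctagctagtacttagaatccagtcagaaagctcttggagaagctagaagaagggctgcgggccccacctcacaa
Ptger4: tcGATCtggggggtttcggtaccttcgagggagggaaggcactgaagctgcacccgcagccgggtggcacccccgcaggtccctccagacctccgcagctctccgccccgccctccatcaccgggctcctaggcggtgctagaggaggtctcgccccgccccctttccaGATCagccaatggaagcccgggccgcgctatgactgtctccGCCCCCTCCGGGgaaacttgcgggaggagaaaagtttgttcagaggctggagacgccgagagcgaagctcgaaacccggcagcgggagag
Bsn: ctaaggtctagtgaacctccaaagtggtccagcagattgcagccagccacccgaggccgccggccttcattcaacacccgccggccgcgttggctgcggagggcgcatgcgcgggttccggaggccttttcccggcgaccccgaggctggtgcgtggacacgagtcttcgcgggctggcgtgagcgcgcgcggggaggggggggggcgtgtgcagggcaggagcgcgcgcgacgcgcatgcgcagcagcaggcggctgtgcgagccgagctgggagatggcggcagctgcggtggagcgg
Foxd1: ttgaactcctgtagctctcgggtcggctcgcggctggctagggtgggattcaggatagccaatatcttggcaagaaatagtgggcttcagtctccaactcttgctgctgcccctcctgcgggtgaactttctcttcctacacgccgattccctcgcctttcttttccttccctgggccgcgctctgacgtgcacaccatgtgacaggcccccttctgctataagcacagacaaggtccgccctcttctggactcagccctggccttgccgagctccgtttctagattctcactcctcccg

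The capitals in Atf3 are a cAMP-response-type match, which 3.53% of 20084 autosomal promoters of the same length hold; that motif was added after the sequences had been read. In Trappc3 and Ptger4 the run of 12 capitals is a CTCF core, which 4.22% of the same promoters hold. The remaining capitals in Plekho2, Trappc3 and Ptger4 are DpnII sites, present in 46.2% of promoters, and they mark where the Hi-C enzyme cuts. The Amigo3, Bsn and Foxd1 promoters hold none of the 4 motifs, which says only that these letters are not in these windows. The 300 bases of Bsn hold 38 CG pairs, Atf3 27, Ptger4 25, Plekho2 and Trappc3 22 each, Foxd1 15 and Amigo3 4, where the median of all promoters was 14. Across all loops inside these domains, 5 promoters lay in anchors of loops found in both lists and 1 held a CTCF core. For loops of the GR list only it was 3 of 16 promoters, and for loops of the Pa list only it was 0 of 17. The promoter of Trappc3 counts in both of the first classes, since it also lies in an anchor of a GR-only loop, so 3 distinct promoters held a CTCF core. The Plekho2 promoter counts in both classes too and holds no core. The forkhead core, in 3.04% of all promoters, was found in 1 of these anchor promoters, that of Scrn3 at a Pa-only loop.

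The rule itself chose domains that kept both borders, so the match is a description. Of the large autosomal parental domains 29.4% were matched, against 63.1% of all autosomal parental domains and 67.5% of those under 1000 kb. Of the 116 domains, 39 (33.6%) had both borders in exactly the same bin in GR and Pa. The left border was identical in 67 and the right border in 68. In GR the domain was of equal size in 45, larger in 44 and smaller in 27, and 5 of them measured under 1000 kb in GR. Of the 269 unmatched large domains, 109 (40.5%) kept both borders but gained a further border inside in GR, 139 (51.7%) kept 1 border and 21 (7.81%) kept none. Just inside the border limit stood 26 domains with an offset of 20 kb, with a median of 2 genes, 1.58 GR loops and 1.35 Pa loops per domain. Just outside it stood 24 unmatched domains, with a median of 2 genes, 1.92 GR loops and 1.17 Pa loops per domain. Their worse border lay over 20 and up to 30 kb from the nearest border of any GR domain. The 2 nearest GR borders need not belong to 1 GR domain, so these 24 are not all near matches. Around the size limit, the 21 domains under 50 kb above it had a median of 2 genes, 2.38 GR loops and 2.62 Pa loops per domain. The 28 matched domains with genes under 50 kb below it had a median of 3.5 genes, 2.04 GR loops and 1.64 Pa loops.

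The 116 domains covered 168.9 Mb, which is 7.09% of the autosomal sequence in parental domains. Their sizes ran from 1000 to 4000 kb with a median of 1235 kb, 38 lay between 1000 and 1100 kb, and 16 reached 2000 kb. Chromosome 2 held the highest number, 15, followed by chromosome 1 with 11 and chromosome 4 with 9, and chromosome 6 held 2. Only 4 pairs were neighbours. The separation score that comes with each domain had a median of -0.59 in GR and -0.58 in Pa for these domains, against -0.41 in GR and -0.41 in Pa for all autosomal domains; no source gives the score's direction. The score was lower in GR than in Pa in 57 of the 116.

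Genes were sparse. The 116 domains overlapped 738 protein-coding genes of the 20661 on autosomes (3.57%), or 4.37 per Mb. The unmatched large domains held 4.09 per Mb, stable domains under 1000 kb 11.4 and all autosomal domains 8.53. Gene bodies covered 29.1% of the sequence, against 28.0% in unmatched large domains, 52.1% in small stable domains and 40.9% in all domains. The median domain held 3 genes. In 30 domains there was 1 gene, 45 held 2 or 3, 29 held 4 to 14, and 12 held 15 or more. In 2 of the 30 domains with 1 gene that gene was a predicted one only, among them the 4000 kb domain on chromosome 1 (chr1:26690001-30690000), in which the gene body filled 0.103% of the sequence.

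**Figure D1:**
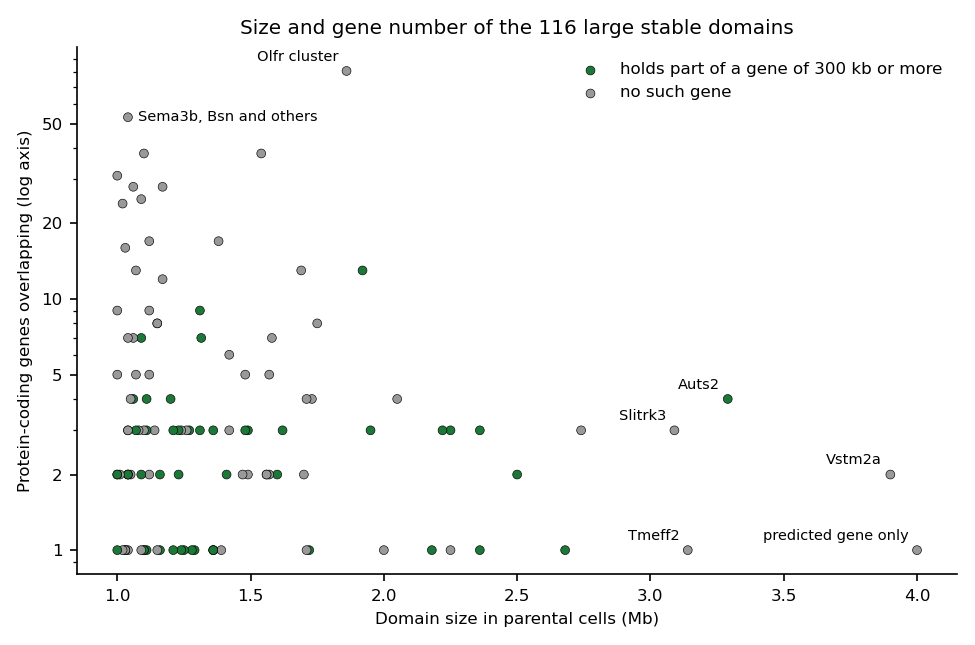
Domain size in parental cells in Mb (x axis) against the number of protein-coding genes overlapping it (log y axis) for the 116 large stable domains, each a point, green where the domain holds part of a gene of 300 kb or more. The domains of 3 Mb or more hold 1 to 4 genes each, while the domains with 15 or more genes all measure under 2 Mb.

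Long genes stood out among the few genes present. Of the 701 genes with their midpoint inside these domains, 46 were 300 kb or longer (6.56%, interval 4.84 to 8.66%), against 2.57% of all autosomal genes. Unmatched large domains had 6.60% and small stable domains 2.14%. Of the 532 autosomal genes of this length, 57 overlapped one of the 116 domains (10.7%). A long gene or part of one lay in 49 domains (42.2%), against 134 of the 269 unmatched large domains (49.8%). In the domains with 1 gene, which hold 29 distinct genes because Lrrc4c is the gene of 2 of them, the median gene length over the 30 domains was 417 kb. A long gene was the gene of 17 of the 30, or 16 of the 29 distinct genes. Any overlap counted, which favours long bodies, and no such value is given for unmatched large domains with 1 gene.

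The longest was Pcdh15, a cadherin of the hair-cell tip link, of 1554 kb, and it spanned its whole 1100 kb domain (chr10:73110001-74210000) and ran on beyond it, with 70.8% of the gene inside. Nkain2, which codes for a protein that binds the sodium-potassium pump, filled 99.8% of its 1160 kb domain, and 95.8% of the gene lay inside. Npas3, a bHLH-PAS transcription factor, filled 70.9% of its domain and Tenm3, a teneurin adhesion protein, 75.2%. Auts2, a gene of brain development, lay whole inside the third-largest domain (3290 kb), and Sdk1, Cdh18, Celf2, Alk and Malrd1 were also wholly inside theirs. Others only reached in: 2.74% of Cntn5, a contactin, 5.95% of the cadherin Cdh12 and 18.9% of Robo1, the Slit receptor of axon guidance. Lrrc4c, a postsynaptic adhesion protein, reached from the right end of one domain into another, with 13.97% of its 1314 kb inside the pair.

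**Figure D2:**
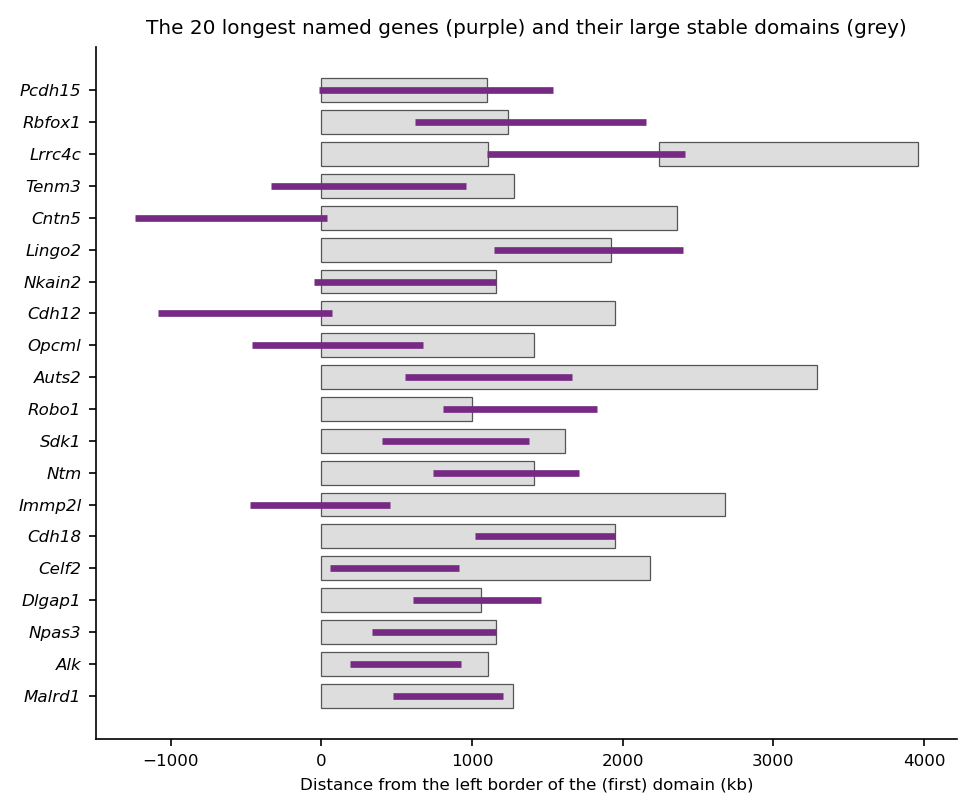
The 20 longest named genes (purple bars) drawn against the large stable domain they overlap (grey boxes), as distance in kb from the domain's left border in parental cells, with the longest gene at the top. Pcdh15 spans a whole domain, Nkain2 nearly does, Auts2 lies well inside one, and the body of Lrrc4c reaches from the end of one domain into a second.

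A border crossed 30 of the 57 long genes (52.6%), against 65 of the 681 shorter genes (9.54%). Genes were counted by any overlap, so a longer body crosses a border more readily, and no value for like lengths is given. Ends of genes were often close to borders. A gene end lay within 20 kb of 117 of the 228 distinct borders (51.3%, interval 44.6 to 58.0%), against 44.2% of borders of unmatched large domains and 66.5% of those of small stable domains. Among the 20 longest genes, the ends nearest to a parental border of the domain were those of Npas3 (2.17 kb), Cdh18 (2.51 kb) and Nkain2 (2.83 kb). Others lay far from one, such as Auts2 (557 kb) and Rbfox1 (615 kb). The right border of the Npas3 domain lay 20 kb further right in GR.

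Of the 19 gene lists, the highest shares overlapping these domains were those of extreme-length genes (18.5%), synaptic adhesion (17.3%) and cadherins (14.7%), against 3.57% of all autosomal genes. List shares in unmatched large domains are not given here, so no share is shown to be particular to the stable ones. Of 52 synaptic adhesion genes, 9 overlapped these domains (interval 8.23 to 30.3%): Cntnap4, Cntn1, Cntn5, Ntm, Opcml, Lrrc4c, Slitrk3, Tenm3 and Ncam2. The list's median length was 412 kb, and 10.7% of all long autosomal genes overlap these domains. Among 34 cadherins and protocadherins there were 5 (Cdh12, Cdh18, Pcdh15, Pcdh17 and Pcdh20), and among 67 neuronal receptors and channels 7, among them the glutamate receptor genes Gria1, Grin2a and Grin3a and the cannabinoid receptor gene Cnr1. Of 36 axon guidance genes, Robo1 and Epha5 were present. Of 27 genes of extreme length, many of them at fragile sites in cancer, 5 were present (Csmd2, Immp2l, Rbfox1, Auts2 and Esrrg).

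Of 95 developmental transcription factors, 11 overlapped these domains wholly or in part (11.6%, interval 5.92 to 19.8%). Among them were Bcl11b, Nr2f2, Tshz3, Zfhx3, Ebf3, Nfia, Lmo4, Runx1, Zeb2 and Rorb. Only 31.8% of Nfia, 45.6% of Nr2f2 and 60.2% of Zfhx3 lay inside. Their list had a median length of 28.5 kb. Nr2f2, Zfhx3, Nfia and Lmo4 were each the only named gene of their domain.

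Several pancreatic, immune and drug lists had no gene there. None of 30 foregut and pancreatic transcription factors (interval up to 11.6%), 26 acinar enzymes (up to 13.2%), 36 immune-cell genes (up to 9.74%) or 29 genes that handle gemcitabine (up to 11.9%) overlapped these domains, intervals that include the 3.57% of all genes. Endocrine genes were represented by 3 of 23, Gcg (glucagon), Iapp (amylin) and Scg2 (a granin). The ductal list had Tspan8 (1 of 31), the fibroblast list Col1a2 and Fap (2 of 26), the endothelial list Ptprb (1 of 20), the muscle list Nebl (1 of 38) and the liver list the transporter Slco1b2 (1 of 28). Housekeeping genes were Psmb2, a proteasome subunit, and Vcp (2 of 34), pancreatic cancer driver genes Robo1 (1 of 47), and genes of epithelial-mesenchymal plasticity the repressor Zeb2 (1 of 30). Apart from the endocrine list, at 13.0% (interval 2.78 to 33.6%), the lists named here with a gene present had shares of 2.13 to 7.69%, and the intervals of all of them include the 3.57% of all genes.

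Of the 12 domains with 15 or more genes, 5 were clusters with over 50% of their genes from the Olfr, Pate or Zfp family, and 7 were mixed. Clusters of olfactory receptor genes (Olfr) gave 144 of their 1104 autosomal genes (13.0%) in 3 domains, all on chromosome 2, which hold 81, 38 and 28 genes. All 14 Pate genes, a family of small secreted proteins, stood in 1 domain on chromosome 9. Of 388 Zfp zinc-finger genes, 31 (7.99%, interval 5.49 to 11.1%) lay in 7 domains, against 3.57% of all autosomal genes. Most of these 31 were neighbours in 1 domain on chromosome 13, so the interval, which counts genes as independent, is too narrow. Family shares in unmatched large domains are not given here. These families were picked after the values were seen. A chromosome 9 domain of 1040 kb (chr9:107530001-108570000) with 53 genes, among them Sema3b, Gnai2, Dag1 and Bsn, was the mixed one with the most genes.

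Loops inside these domains were few in both lists. A loop counted as inside when both anchors lay in the domain. There were 224 in GR, or 1.33 per Mb, and 231 in Pa, or 1.37 per Mb. Unmatched large domains had 1.15 per Mb in GR and 1.04 in Pa, small stable domains 3.76 in GR and 3.66 in Pa, and all autosomal domains 2.70 in GR and 2.60 in Pa. The median was 1 GR loop and 2 Pa loops per domain, with up to 9 GR loops and 11 Pa loops. In 65 domains both lists had a loop, 21 had GR loops only, 22 had Pa loops only and 8 had none.

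Sharing between the lists was low. A GR loop and a Pa loop were called shared, or found in both lists, when left anchor matched left anchor and right matched right to within 10 kb. That held for 38 GR loops (17.0%, interval 12.3 to 22.5%) and 38 Pa loops (16.5%, interval 11.9 to 21.9%), against 36.3% of all autosomal GR loops and 37.8% of all autosomal Pa loops. In unmatched large domains it was 11.3% in GR and 12.4% in Pa, and in small stable domains 42.0% in GR and 43.3% in Pa. Most of the loops here were weak calls: the caller's p had a median of 0.00375 in GR and 0.00351 in Pa, against 0.00571 in GR and 0.00483 in Pa for unmatched large domains, and 0.000132 in GR and 0.000107 in Pa for all autosomal loops. A p over 0.001 was attached to 65.2% of the GR loops and 64.9% of the Pa loops, against 72.0% of GR loops and 70.3% of Pa loops in unmatched large domains.

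Set beside loops of like p, those inside the domains were shared about as often as all autosomal loops, except the weakest, whose share was low in unmatched large domains too. With p of 1e-05 or lower, 20 of 30 GR loops (66.7%) and 19 of 32 Pa loops (59.4%) were found in both lists, against 68.2% of all such autosomal GR loops and 68.5% of Pa loops. With p over 1e-05 and up to 0.001 it was 31.3% of 48 GR loops and 30.6% of 49 Pa loops, against 34.7% of all such GR loops and 34.8% of Pa loops. With p over 0.001 it was 3 of 146 GR loops (2.05%, interval 0.426 to 5.89%) and 4 of 150 Pa loops (2.67%, interval 0.731 to 6.69%), against 2.66% of such GR loops and 2.10% of Pa loops in unmatched large domains, and 8.16% of all such autosomal GR loops and 9.38% of Pa loops. The depth behind the calls is unknown.

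**Figure D3:**
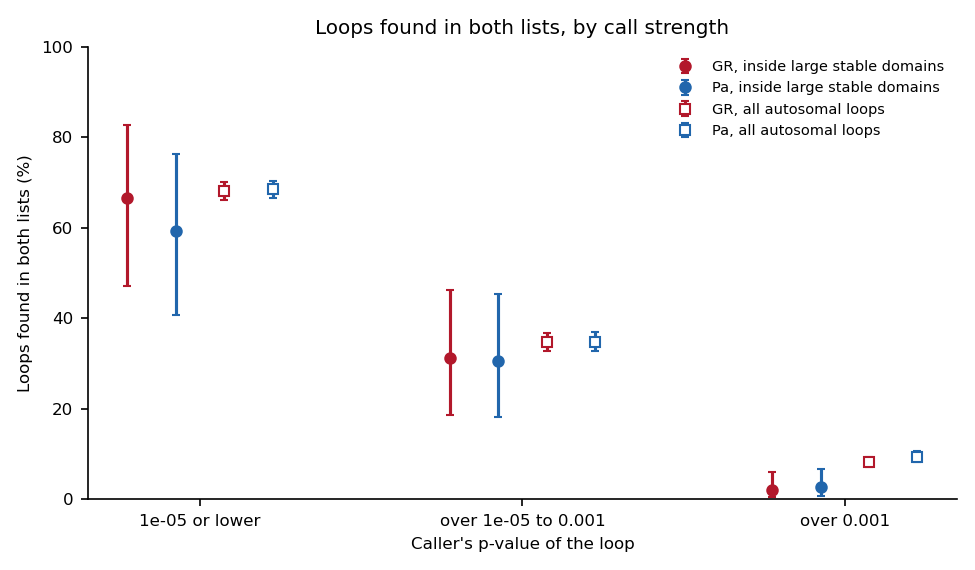
Share of loops found in both lists (y axis, %) by the caller's p-value of the loop (x axis), for loops inside the 116 domains (filled circles) and all autosomal loops (open squares), GR in red and Pa in blue, with exact 95% intervals for counting error. The circles and squares overlap in their intervals at p of 0.001 or lower, and above 0.001 the circles lie lower, at 2.05% in GR and 2.67% in Pa.

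The loops had a median span of 90 kb in both lists (unmatched large domains, 100 kb in GR and 85 kb in Pa; all autosomal loops, 115 kb in both). Spans of at most 15 kb made up 14.3% of the GR loops and 16.5% of the Pa loops inside, against 15.5% of GR loops and 21.5% of Pa loops in unmatched large domains, and 7.01% of all autosomal GR loops and 6.94% of Pa loops. A gene end lay within 5 kb of an anchor bin for 31.3% of the GR loops and 36.4% of the Pa loops, against 52.7% of all autosomal GR loops and 53.5% of Pa loops. Loops found in both lists touched a gene end in 27 of 38 cases in GR (71.1%) and 26 of 38 in Pa (68.4%). GR-only loops did so in 23.1% and Pa-only loops in 30.1%. These shares are not given for unmatched large domains, nor for shared and list-only loops over all autosomes. Shared loops were also more frequent in domains with more genes, and the part of gene number in this difference was not tested. Both anchors lay in the body of a single long gene for 10 GR loops and 18 Pa loops.

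Taken by class of gene number, domains with more genes had more loops per Mb and a higher shared percentage, but clusters of 1 gene family did not follow this. The 75 domains with 1 to 3 genes had 1.02 GR loops and 1.03 Pa loops per Mb, of which 7.76% in GR and 7.63% in Pa were found in both lists. The 29 with 4 to 14 genes had 1.56 GR and 1.46 Pa loops per Mb, with 17.5% shared in GR and 18.6% in Pa. The 12 with 15 or more genes had 3.12 GR and 3.75 Pa loops per Mb, with 40.0% shared in GR and 33.3% in Pa. A p over 0.001 was attached to 82.8% of GR loops and 82.2% of Pa loops in the class with 1 to 3 genes. In the class with 15 or more it was 26.7% of GR loops and 37.0% of Pa loops. Call strength thus moved with the class of gene number, and its part in the sharing was not tested. The Olfr, Pate and Zfp clusters among the 12 held 0 to 3 GR loops and 2 or 3 Pa loops each, none of them shared. The domain with the most genes, 81, had 1 GR loop and 2 Pa loops.

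Loops that span a whole domain were nearly absent. Taking corner loops as those with an anchor within 50 kb of each border, 1 loop in GR and 1 in Pa qualified, and they matched each other. It was the loop of the Robo1 domain (chr16:71220001-72220000, 1000 kb), 960 kb long in GR with p of 8.25e-07 and 955 kb long in Pa with p of 3.35e-05, and it ended in the body of Robo1. Loops over at least 50% of the domain numbered 11 in GR and 15 in Pa. No loop of either list enclosed one of the 116 domains, and 18 GR loops and 12 Pa loops had 1 anchor inside and the other outside. The longest loop inside any of these domains spanned 970 kb in GR and 960 kb in Pa, while each domain measured 1000 kb or more. The longest span in the whole lists is not given here. An upper limit on loop length in the lists would by itself keep enclosing and corner loops low, and this was not tested.

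The 10 largest domains carried few loops that were shared. The 3900 kb domain on chromosome 11 with Pom121l12 and Vstm2a, a secreted protein of the immunoglobulin family, had 8 GR loops and 2 Pa loops, none in common. The 4000 kb domain on chromosome 1 had 7 GR loops and 2 Pa loops, none in common, and their p ran from 0.00480 to 0.0223 in GR and were 0.0295 and 0.0238 in Pa. The Galnt17 and Auts2 domain had 3 GR loops and no Pa loop. The Tmeff2 domain, with 1 gene for a transmembrane protein, had 4 GR loops and 2 Pa loops of which 1 matched. The gene body filled 0.934% of that domain, and no loop there had an anchor at the gene. The matched pair was weak and short, 5 kb in GR (p 0.0437) and 15 kb in Pa (p 0.0168). The domain with Otol1, Sis (sucrase-isomaltase of the gut) and Slitrk3 had 4 GR loops and no Pa loop. Grin3a, Ppp3r2 and Cylc2 shared a domain with 1 GR loop and 5 Pa loops. The Immp2l domain had 1 GR loop and no Pa loop, the Epha5 domain 3 GR loops and no Pa loop, the Cntn5 domain 1 GR loop and 3 Pa loops, and the domain of Hs3st5 and Hdac2, a histone deacetylase, no GR loop and 1 Pa loop.

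More GR-only than Pa-only loops were found in 43 of the 116 domains (37.1%), against 43.1% of unmatched large domains, and more Pa-only than GR-only loops in 47 (40.5%), against 33.1%; the numbers were equal in 26. This order turned in several other settings, with 17 domains for GR and 15 for Pa at a border limit of 0 kb, 54 and 51 at 50 kb, 57 and 56 with a reciprocal overlap of 90%, and 16 and 10 at a minimum size of 1.5 Mb. It also turned among the 50% of domains with the highest score (12 for GR, 7 for Pa) and the 50% of loops with the lowest p (13 for GR, 12 for Pa). With loops over 15 kb only there were 43 domains for each. In other settings the order held. With the longer loop list cut by p to the length of the shorter, there were 38 domains for GR and 52 for Pa. The surplus was of 1 loop in 21 domains for GR and 21 domains for Pa, and exceeded 3 loops in 4 domains for GR and 5 for Pa. The largest GR surplus, 6 loops, was in the Vstm2a domain, followed by 5 in the 4000 kb domain of chromosome 1. Surpluses of 4 were seen in the Otol1, Sis and Slitrk3 domain and in the domain of Mgmt, Ebf3 and Glrx3. Each had 4 GR loops and no Pa loop. Mgmt is the enzyme that removes alkyl groups from guanine in DNA, and no loop of its domain had an anchor at it. The caller's p of the GR loops ran from 0.00525 to 0.0212 in the Mgmt domain. It ran from 0.00639 to 0.0172 in the Otol1, Sis and Slitrk3 domain and from 0.000872 to 0.0212 in the Vstm2a domain. The largest Pa surplus, 5 loops, was in a domain on chromosome 15 with 17 genes, among them Zhx2 and Atad2. That domain had 1 GR loop and 6 Pa loops, and its 5 Pa-only loops had p from 3.64e-05 to 0.00710. Surpluses of 4 in Pa were in the domains of Grin3a (1 GR loop, 5 Pa loops), of Sdc2 and Cpq (0 GR, 4 Pa), of Lmo4 (1 GR, 5 Pa) and of Zswim6 (0 GR, 4 Pa).

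**Figure D4:**
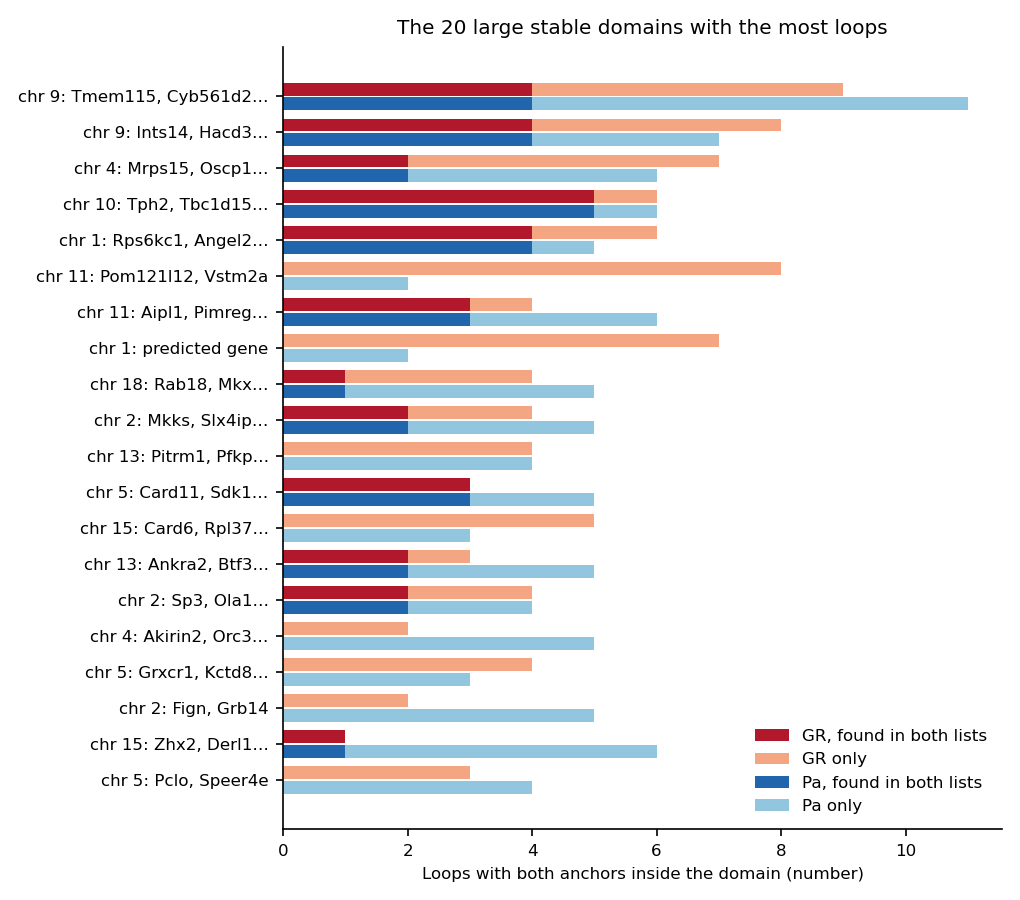
Number of loops with both anchors inside (x axis) for the 20 large stable domains with the most loops, GR (upper bar) above Pa (lower bar), dark for loops found in both lists and light for loops of that list only. The chromosome 9 domain at the top has 9 GR and 11 Pa loops with 4 in common, while the Pom121l12 and Vstm2a domain has 8 GR and 2 Pa loops with none in common.

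The 5 domains with the most loops held 12 to 53 genes, and 16 of the 116 domains held all 38 shared loops. The chromosome 9 domain with 53 genes had 9 GR loops and 11 Pa loops, 4 in common. Of these, 1 ran over 30 kb from a bin near an end of Slc38a3 to the body of Gnat1, near an end of Sema3f (p 1.04e-07 in GR, 2.87e-06 in Pa). Another ran between Bsn and Dag1 over 105 kb (3.24e-07 in GR, 2.64e-10 in Pa). A second domain on chromosome 9 (chr9:64960001-66130000, 28 genes) had 8 GR loops and 7 Pa loops with 4 in common, including the loop of lowest p in GR among the shared ones, which ended at Rbpms2 over 55 kb (1.81e-10 in GR, 5.27e-09 in Pa). The domain of Psmb2 and the Argonaute genes Ago1, Ago3 and Ago4 on chromosome 4 had 7 GR loops and 6 Pa loops with 2 in common. A chromosome 11 domain with 25 genes, among them Tekt1, had 4 GR loops and 6 Pa loops with 3 in common, including a 35 kb loop from the body of P2rx1 to Camkk1 and Ncbp3 (2.83e-09 in GR, 5.99e-10 in Pa). The domain of Lgr5, the Wnt-pathway receptor of intestinal stem cells, Tspan8 and Ptprb on chromosome 10 had 6 GR and 6 Pa loops with 5 in common, which gave it the highest shared count of the 116. Its loop between the bodies of Ptprr and Ptprb spanned 110 kb (7.96e-10 in GR, 3.03e-11 in Pa).

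Loops at named genes were in part common to both lists and in part not. In the domain of Jag1, a Notch ligand, both lists had a long loop from the gene's end into the part without genes, 620 kb long in GR (p 1.27e-05) and 615 kb long in Pa (4.02e-09), and Pa alone had a second of 830 kb from the same bin (5.14e-05). In the Runx1 domain, which holds a transcription factor of blood development, 2 loops were in common, of 75 kb and 585 kb in GR, and a 755 kb loop from the gene body (2.01e-05) was in Pa only. The Atf3 domain held 4 loops in common out of 6 in GR and 5 in Pa, 2 of them at Atf3, of 95 kb (2.29e-08 in GR, 6.65e-05 in Pa) and 75 kb to Batf3 (6.30e-05 in GR, 0.000129 in Pa). The Robo1 domain had 3 further GR-only loops touching the gene body, at p of 0.00135, 0.0203 and 0.00683, and 1 such Pa-only loop at 0.0212. In the Lmo4 domain the gene had 1 GR-only end loop (0.000521) and 2 Pa-only ones (2.91e-05 and 0.000305).

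**Figure D5:**
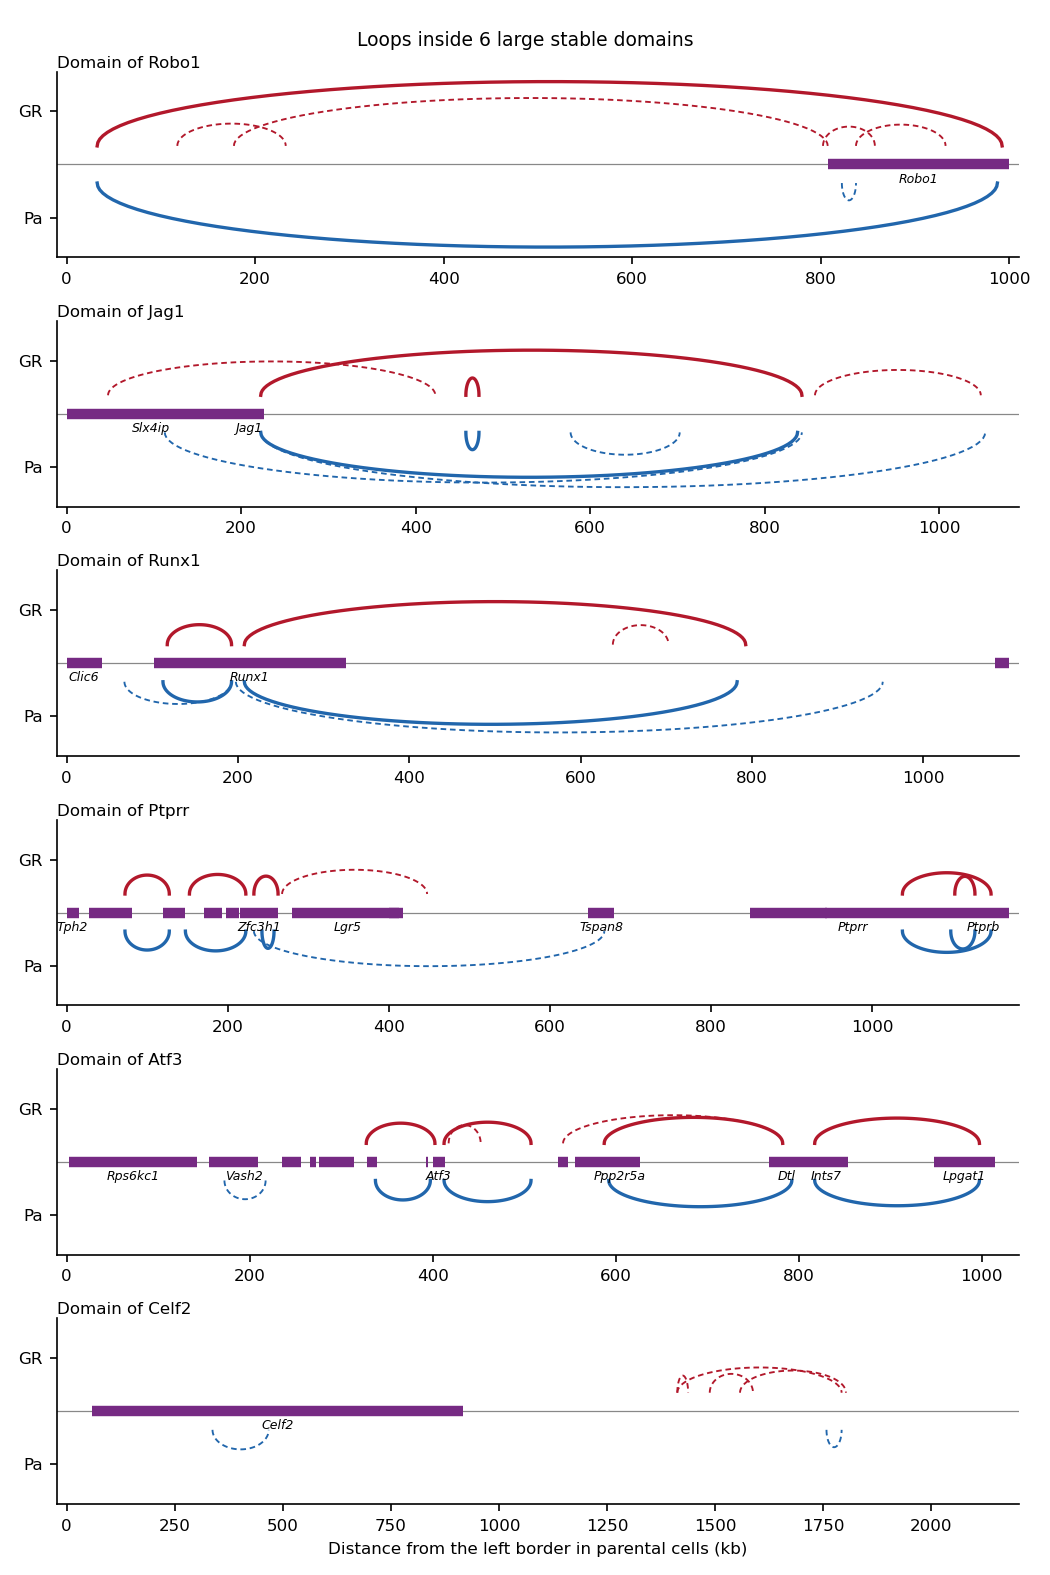
Loops inside 6 large stable domains chosen after their values were seen, as arcs by distance from the left border in kb (x axis), GR above the gene line and Pa below it, with solid arcs for loops found in both lists, dashed arcs for loops of that list only, and gene bodies in purple. The 960 kb loop of the Robo1 domain and the long loop from Jag1 appear in both lists, while the Celf2 domain holds 4 GR and 2 Pa loops with none in common.

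The strongest loops found in a single list were mostly at named genes. In GR only, the lowest p was 1.05e-08 for a 90 kb loop from the body of Traip to Ip6k1, Gmppb, Rnf123 and Amigo3, followed by a 795 kb loop in the Mpp7 domain of chromosome 18 (4.57e-08), an 85 kb loop from Phf24 to Dnajb5 (4.91e-08), a 90 kb loop to Col8a2 (1.37e-07) and a 70 kb loop with an anchor in the body of Dag1 (3.59e-07). In Pa only, the lowest p was 3.93e-11 for a 75 kb loop with an anchor in the body of Tekt1, a gene of sperm flagella and cilia. It was followed by a 55 kb loop within Bsn (3.03e-07), a 140 kb loop from Foxd1 (3.36e-07), a 45 kb loop at Angel2 and Vash2 (4.11e-07) and a 920 kb loop in the Ap1s3 domain (1.02e-06). A lone p in a single list per condition does not show that a loop is absent from the other cells. Of the 38 shared loops, 19 had the lower p in GR.

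Genes of the lists touched few loops. Of the 9 synaptic adhesion genes, Cntnap4 had 1 GR-only and 1 Pa-only loop with an anchor in its body, Ncam2 had 1 such GR-only loop and 1 Pa-only loop that reached only a window of 5 kb at its end, and Lrrc4c and Ntm 1 GR-only loop each. Among receptors, Gria1 had 1 GR-only and 1 Pa-only loop, Grin2a 1 GR-only and Grin3a 1 Pa-only. Among developmental transcription factors, Runx1 had 2 GR and 4 Pa body loops, Lmo4 1 GR and 2 Pa, Rorb and Tshz3 1 GR each, and Nfia and Zeb2 1 Pa each. Ptprb had 2 loops in each list, all of them found in both. Tspan8 and Fap had 1 Pa-only loop each, and Esrrg had 2 GR-only and 1 Pa-only. Rbfox1 had no GR loop and 2 Pa-only loops in its body.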

How the data were processed

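Hi-C lists of gemcitabine-resistant and parental mouse pancreatic cancer cells were used; the 48 samples of the other assays were not analysed here. Per the submitters' processing notes, BWA and the builds mm10 and hg19 were named, while the program that called domains or loops is not named there. According to their headers, as deposited by the authors, loop lists hold anchor positions in 5 kb bins with a p-value for each loop, and domain lists hold positions, in 10 kb bins apart from 19 GR and 17 Pa borders at odd multiples of 5 kb, with a separation score that the authors deposited. Coordinates were taken as mm10 and written 1-based. Genes (RefSeq, GRCm38.p6; 20661 protein-coding on autosomes) were overlapped with the domains, a gene of 300 kb or more being called long.

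Domains were matched when both borders lay within 20 kb, and loops when both anchors lay within 10 kb. No replicate values exist, so no test was run between conditions, and shares carry exact 95% Clopper-Pearson intervals. Named domains and genes followed a rule: the 10 largest domains, the 8 with the most loops, up to 6 with the largest difference in list-only loops each way, the 20 longest genes, up to 6 genes per list by body loops, and genes at the 5 loops of lowest p per class; predicted genes were counted, not named, and a few genes of the lists are not reported here by name. The domains and gene lists were chosen with earlier results of these data known. The matching was tested on simulated data. Python 3.11.15, pandas 2.3.3, NumPy 2.4.6, SciPy 1.17.1 and matplotlib 3.10.9 were used. Alternatives covered border, loop and size limits, overlap in place of borders, swapped lists, call strength, and the definitions of an inside loop, a corner loop and a long gene.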

Additional observations from a re-analysis of the deposited data

How the results depend on the processing

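Of 237 values recomputed under 22 settings, 183 kept within 1.5 times (counts) or their counting interval (shares) and 54 did not. With a border limit of 0 kb, 39 domains were left, 9.43% of large parental domains, with 75 GR and 80 Pa loops inside, of which 24.0% in GR and 22.5% in Pa were found in both lists, 17 domains with more GR-only and 15 with more Pa-only loops, and 0 corner loops in both lists. The stable share was 22.3% at 10 kb, 34.9% at 50 kb and 38.6% with a reciprocal overlap of 90%; at 50 kb 54 domains had more GR-only and 51 more Pa-only loops, and with the 90% overlap 57 and 56, the other order than in the main comparison. With a minimum size of 0.8 Mb there were 254 domains (36.7%), 501 GR and 523 Pa loops, 26.1% in GR and 25.2% in Pa shared, 91 domains with more GR-only and 100 with more Pa-only loops, and 5 with a corner loop in both lists. At 1.5 Mb there were 34 domains (21.8%), 78 GR and 58 Pa loops, 5.13% in GR and 6.90% in Pa shared, a Pa median span of 47.5 kb, 16 domains with more GR-only and 10 with more Pa-only loops, and 0 corner loops. Among the 50% of domains with the highest score there were 22 domains (16.3%), 44 GR and 34 Pa loops, a Pa median span of 57.5 kb, 12 domains with more GR-only and 7 with more Pa-only loops, and 0 corner loops. Among the 50% with the lowest score, an alternative chosen after seeing the data, no value moved. With a loop limit of 0 kb, 7.59% of GR and 7.36% of Pa loops were shared. Among the 50% of loops with the lowest p there were 58 GR and 59 Pa loops, 44.8% in GR and 44.1% in Pa shared, and 13 domains with more GR-only against 12 with more Pa-only loops. Corner loops in both lists were in 0 domains with the lists swapped, with genes wholly inside or within 30 kb of the borders, and in 2 with anchors up to 20 kb outside. The long-gene share was 4.20% for genes wholly inside, 8.99% at 200 kb and 3.42% at 500 kb. The cause was not tested.

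No paired analysis was possible because each condition has 1 domain list and 1 loop list with no replicate columns. Read depth behind the lists is unknown, and a loop missing from a list is not shown to be absent from the cells. The domains were chosen for matching borders, which fixes their stability. Domain size, gene number and call strength move together here, and their parts were not told apart. Gene bodies come from 1 annotation, without strand.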

Other observations

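On chromosome X, 5 domains would meet the same rule and were left out. The 12 matched large autosomal domains without a protein-coding gene covered 17.9 Mb and held 15 GR loops, or 0.838 per Mb, and 13 Pa loops, or 0.727 per Mb. All 15 GR loops and all 13 Pa loops had p over 0.001, and 1 loop was found in both lists. Predicted genes made up 49 of the 701 genes (6.99%) with their midpoint in the 116 domains, against 14.9% in unmatched large domains and 4.92% in small stable domains.

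The longest GR loop inside any of the 116 domains spanned 970 kb, in the domain of Ptger4, the receptor for prostaglandin E2, and Prkaa1, a catalytic subunit of AMP-activated kinase, on chromosome 15. It was a GR-only loop with p of 5.97e-05, and a second GR-only loop of 680 kb also had an anchor in the Ptger4 body (4.17e-06). In the domain of Scg2 and Ap1s3, Pa had 2 loops of 920 and 960 kb (1.02e-06 and 2.70e-06) that shared an anchor at the left border.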
